A study of Mus musculus with 2 samples.

Results

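The IGF-binding protein genes measured here are *Igfbp2*, *Igfbp3*, *Igfbp4*, *Igfbp5*, *Igfbp6* and *Igfbp7*, 6 genes found by their symbols among the 31053 gene rows of both count matrices. They encode secreted proteins. IGFBP2 to IGFBP6 bind the insulin-like growth factors IGF1 and IGF2 tightly in the extracellular space and thereby limit or prolong their access to the type 1 IGF receptor, and proteases such as PAPP-A release the ligand again. IGFBP7 is a related protein of the vascular matrix with weak affinity for IGFs. In the lung, these proteins are made by different cells, and *Igfbp2* is a known transcript of alveolar type 1 (AT1) cells, the thin cells of the gas exchange surface.

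The cells came from lungs of C57/B6 mice of 2 to 4 months, with 1 library from normoxia and 1 library from hypoxia (3 weeks at 10% oxygen). No genetic change was named for either, and the hypoxia-exposed mice were described as wild type. More than 1 animal was exposed, and how these map to the library is not stated. Lungs were digested, and cells with CD45 (leukocytes) or CD326 (epithelium) were drawn off on beads, so the AT1 cells described here are those that escaped the depletion. Single cells were captured with a 10x Chromium 3′ kit, in which a unique molecular identifier (UMI) counts each captured molecule once, and the number of animals behind each library is not given in the labels. With 1 library per condition, the condition and the library cannot be told apart, no test between conditions was possible, and every interval below covers counting error only.

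The normoxia library held 2223 cells and 7630683 UMIs, and the hypoxia library 809 cells and 2685345 UMIs. Filters left 1348 and 689 cells with medians of 3453 and 2224 UMIs, and they shared no barcode after filtering. The kept cells fell into 24 clusters, made with the 6 genes and the IGF pathway genes left out, so that none of them could define a class. Classes were rebuilt from markers and are called "like" for that reason. In normoxia and hypoxia they comprised 53 and 12 AT1-like cells, 175 and 35 alveolar fibroblast-like cells, 14 and 1 adventitial fibroblast-like cells, 16 and 0 myofibroblast-like cells, and 37 and 4 pericyte-like cells. Endothelial cells (EC) made up most of the rest, with 119 and 59 aerocyte-like EC (the large capillary cells of gas exchange), 636 and 426 general capillary-like EC, 19 and 14 arterial-like EC, 56 and 25 venous-like EC and 11 and 5 lymphatic-like EC. A further 5 and 70 EC-like cells had no subtype, 163 and 22 cells lay in an unnamed cluster, and the remainder were 18 and 5 platelet-like, 20 and 3 leukocyte and 6 and 8 AT2-like cells. All 9 AT1 markers and all 9 pericyte markers were detected in their clusters. Some other clusters had weaker support. Cluster 7, with 94 and 33 of the alveolar fibroblast-like cells, had 4 of 6 subtype markers and a median of 1029 UMIs. Cluster 6, with 29 and 116 of the general capillary-like EC, had 3 of 6 and a median of 861 UMIs. The leading genes of both within their lineage included *Sftpc* and *Scgb1a1* and no marker of the subtype. A level is given as UMIs of a gene per 1000000 UMIs of the same cells (CPM), and because a 3′ kit counts molecules regardless of transcript length, levels of different members can be set side by side within a class.

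The members lie at 6 separate places in the mouse genome mm10, and each is a protein-coding gene with 1 row in the matrices. *Igfbp2* (chr1:72824503-72852474, plus strand, 4 exons) and *Igfbp5* (chr1:72857932-72874884, minus strand, 4 exons) face each other tail to tail 5.46 kb apart. *Igfbp3* (chr11:7206086-7213923, minus strand, 5 exons) lies 3.54 kb from *Igfbp1*, a liver-type member of the family. *Igfbp4* (chr11:99041244-99054392, 4 exons) and *Igfbp6* (chr15:102144362-102149511, 4 exons) lie on the plus strand and *Igfbp7* (chr5:77349240-77408041, 6 exons) on the minus strand. Because the exposure was hypoxia, the 250 bases before each start were searched on both strands for ACGTG and GCGTG, the core letters that hypoxia-inducible factors recognise. *Igfbp2* held 4 matches before the start of 1 of its 2 listed promoters, of which 2 are the overlapping readings of 1 palindrome, and *Igfbp3* and *Igfbp7* held 2 each. The windows of *Igfbp4*, *Igfbp5* and *Igfbp6* held none, which says only that these letters are not in them. At least 1 match was present in 38.6% of the 32851 promoters of the RefSeq table (GRCm38.p6), at least 2 in 16.7% and at least 4 in 2.58%. The 30 bases with most matches in each gene are shown 5′ to 3′ in the direction of the gene, with the matches in capitals, at chr1:72824324-72824353 (plus strand), chr11:7214095-7214124 (minus strand, holding 1 of its 2) and chr5:77408210-77408239 (minus strand).
Igfbp2: gGCGTGtgcacaagCACGTGccctCACGCa
Igfbp3: gccctgatacaggGCGTGcgcacagagagc
Igfbp7: cggtcagCACGCatggtggACGTGggacga

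In the normoxia library, the leading classes of the 6 genes were AT1-like cells (*Igfbp2*), myofibroblast-like cells (*Igfbp3* and *Igfbp5*), arterial-like EC (*Igfbp4*), adventitial fibroblast-like cells (*Igfbp6*) and aerocyte-like EC (*Igfbp7*). The fold of the leading class over all other kept cells ran from 6.31 for *Igfbp4* to 208 for *Igfbp2*, and 5 of the 6 genes passed a fold of 10. Of 9038 genes with at least 50 UMIs in normoxia, 6.96% passed that fold. The leading class of *Igfbp4* depended on the clustering. No member led in pericyte-like cells, the supporting cells of capillaries.

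**Figure D1:**
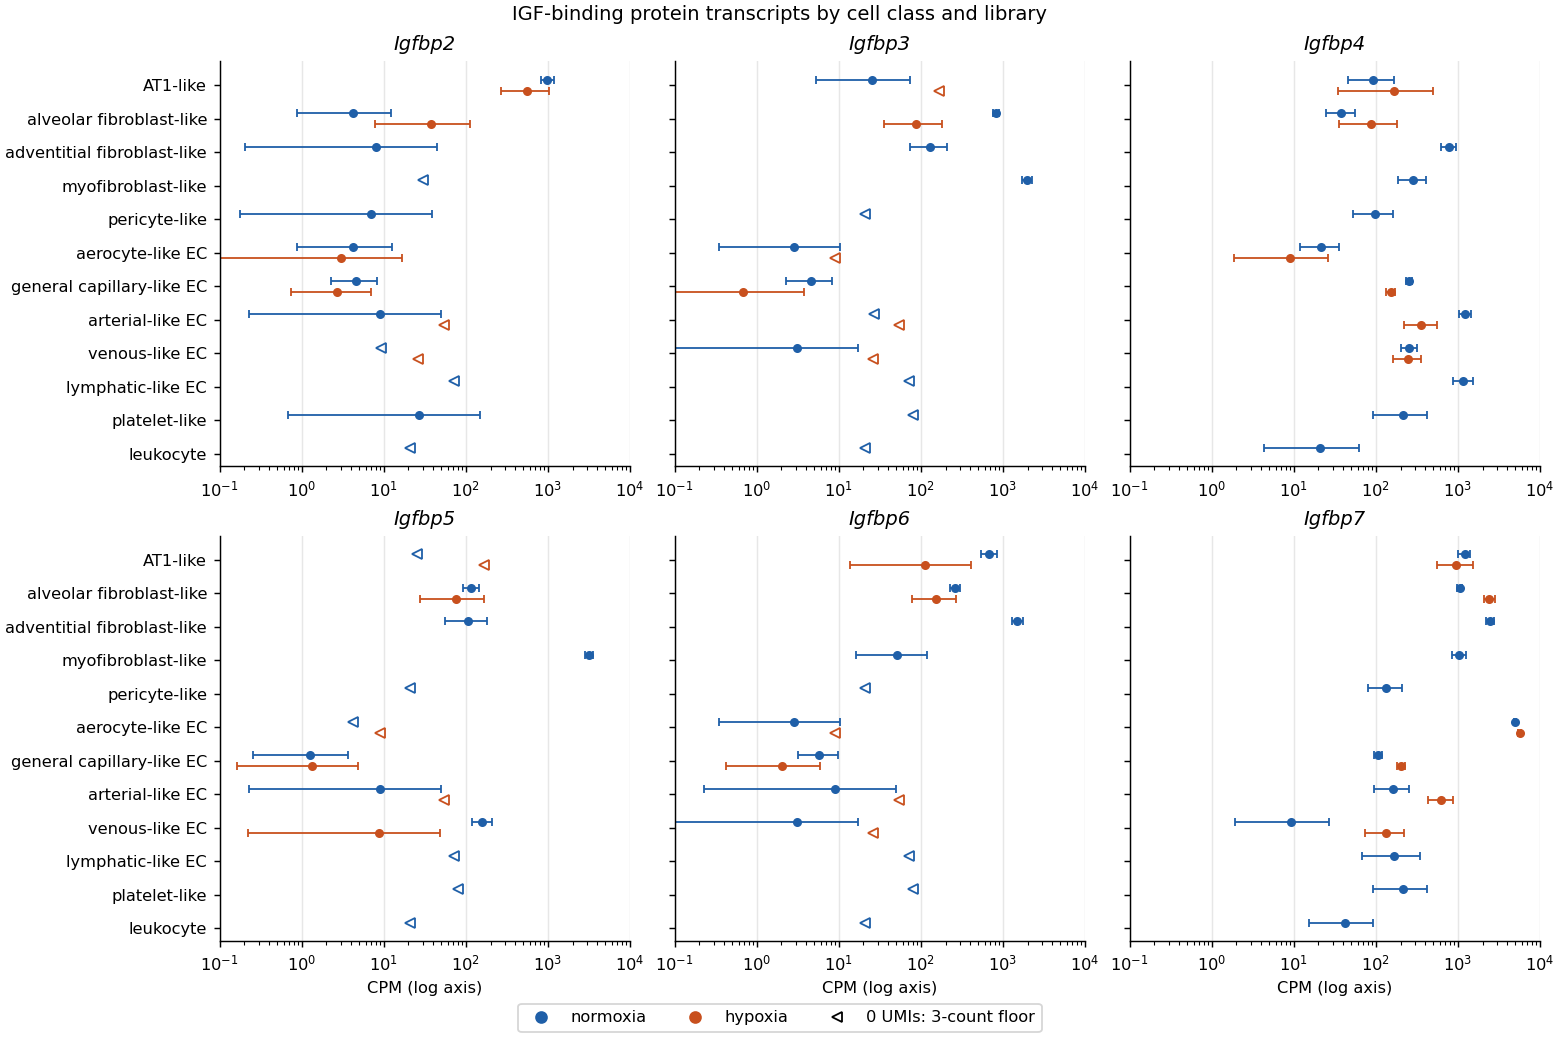
Level of each gene (CPM, log axis) in each cell class of the normoxia (blue) and hypoxia (orange) library, with exact Poisson 95% intervals, for classes with at least 10 cells in that library. An open triangle marks the level that 3 counts would have where no UMI was found, and bars are cut at the left edge. *Igfbp7* is highest in aerocyte-like EC in both libraries, at 4986 and 5672 CPM.

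*Igfbp7* was the most abundant member. It reached 4986 CPM (95% interval 4822 to 5154) in aerocyte-like EC, where 118 of 119 cells held a UMI and the median cell held 29, and it made up 99.4% of all UMIs of the 6 genes there. After each cell was thinned to 1000 UMIs the share of aerocyte-like cells with *Igfbp7* was still 99.1% (110 of 111 cells), against 5.26% in the leukocyte cluster, which served as background. Adventitial fibroblast-like cells followed at 2464 CPM (2194 to 2757), a level 2.02-fold lower (interval of the fold 1.80 to 2.28). AT1-like cells (1205), alveolar fibroblast-like cells (1049) and myofibroblast-like cells (1043) lay next, and neighbours among these 3 differed by less than counting error. In the other blood endothelium *Igfbp7* was low: 160 CPM in arterial-like, 107 in general capillary-like and 9.30 in venous-like EC, the last with 3 UMIs in 56 cells. The leukocyte cluster stood at 42.3 CPM (15.5 to 92.0), so the venous-like level did not exceed the background. Cells of the unnamed cluster held 262 CPM (189 to 355) and platelet-like cells 213 CPM (91.8 to 419). EC markers stood at 11824 and 8663 CPM in these, against 712 CPM in the leukocyte cluster. A background other than the leukocyte cluster was not tested.

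In normoxia, *Igfbp4* was the main member of the named endothelial classes outside the aerocyte-like cells. Arterial-like EC held 1237 CPM (1040 to 1461) and lymphatic-like EC 1171 (867 to 1549), which differed by less than counting error (fold 1.06, 0.76 to 1.49). Of the 139 arterial-like UMIs, 48 came from 1 cell and 66.2% from 3 cells, while 17 of 19 cells held at least 1. The arterial-like level depended on which cells were named arterial. It was 317 to 901 CPM under 6 other filters or clusterings, below the 1171 CPM of the lymphatic-like cells as clustered here. Venous-like EC (257 CPM) and general capillary-like EC (254) could not be told apart, and aerocyte-like EC (21.4, interval up to 35.2) were at the level of the leukocyte cluster (21.1, 4.36 to 61.8). Outside the endothelium, adventitial fibroblast-like cells held 778 CPM and myofibroblast-like cells 284. In the shares of all UMIs of the 6 genes, *Igfbp4* made up 86.9% in arterial-like, 87.5% in lymphatic-like, 67.4% in general capillary-like and 59.7% in venous-like EC, but 0.426% in aerocyte-like EC.

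**Figure D2:**
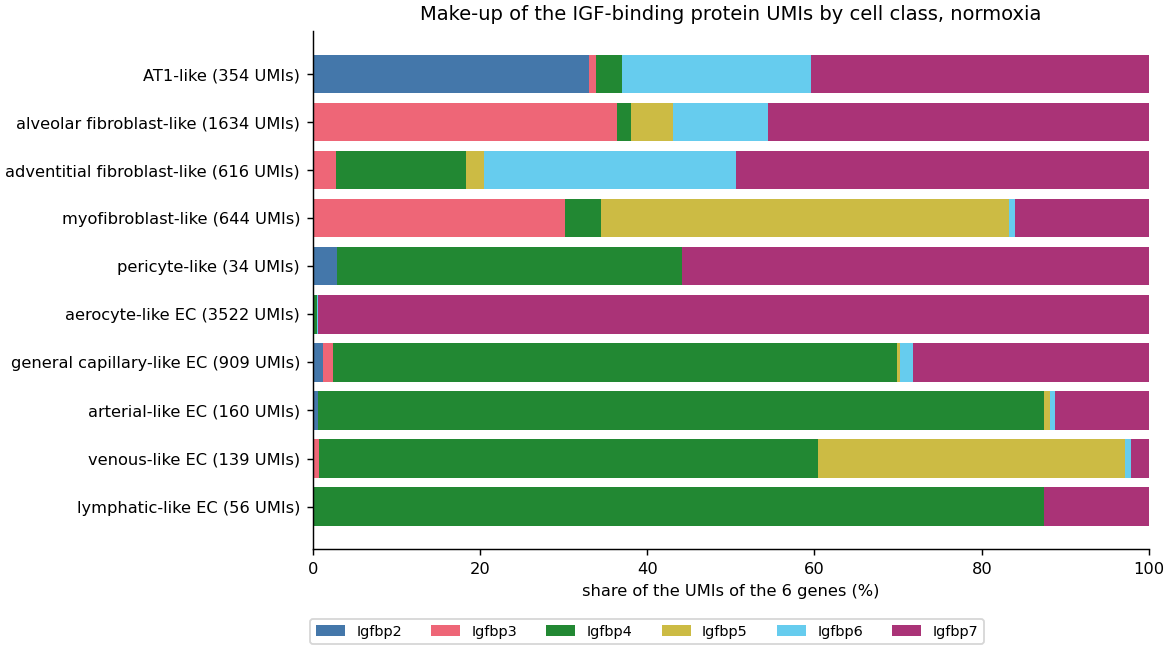
Share (%) of each member among all UMIs of the 6 genes in each cell class of the normoxia library, with the number of those UMIs beside the class name. Aerocyte-like EC consist almost wholly of *Igfbp7* (99.4%), arterial-like and lymphatic-like EC mostly of *Igfbp4*, and myofibroblast-like cells mostly of *Igfbp5* (48.8%) and *Igfbp3* (30.1%).

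*Igfbp5* was concentrated in the 16 myofibroblast-like cells, at 3180 CPM (2838 to 3552) with a UMI in all 16 and 2 to 65 UMIs per cell. These cells held 314 of the 469 *Igfbp5* UMIs of the kept normoxia cells (67.0%). The whole normoxia library held 934, with 465 in cells that the filters left out. The level was 20.1-fold (14.9 to 27.6) that of the next class. That class was the venous-like EC, at 158 CPM (118 to 208), where the 51 UMIs lay in 9 of 56 cells with 15, 12 and 7 in the highest 3, and all 9 of those cells also held *Igfbp4*. Other blood endothelium was nearly free of it, with 3 UMIs in 636 general capillary-like EC and none in 119 aerocyte-like EC, where 3 counts would be 4.27 CPM. No cluster was named for smooth muscle cells. Gates by the largest share of markers, chosen after the values were seen, named 3 normoxia cells smooth muscle-like. Those held 40 *Igfbp5* UMIs, or 3270 CPM (2336 to 4453), against 3170 CPM in the 13 myofibroblast-like cells of the same gates.

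The 82 *Igfbp5* UMIs of the alveolar fibroblast-like cells (115 CPM) did not come from typical cells of the class. Cells were set apart by at least 3 detected genes of the mesothelial list (cells of the pleural lining) or of the airway list, a step added after the values were seen. Both normoxia cells with the mesothelial genes lay in these clusters and held 68 of the 82 UMIs, which is 11014 CPM in 6174 UMIs, and 1 cell with airway genes held another 11. The mesothelial pair also held 31 of the 185 *Igfbp6* UMIs. Without the 3 cells, *Igfbp5* stood at 4.33 CPM in the other 172 alveolar fibroblast-like cells, while *Igfbp3* (855 CPM) and *Igfbp7* (1066 CPM) stayed where they were.

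*Igfbp3* followed the fibroblast lineage. It stood at 1965 CPM (1698 to 2262) in myofibroblast-like cells, all 16 of which held it, and at 834 CPM (768 to 904) in alveolar fibroblast-like cells, 97 of 175 of which held it. Adventitial fibroblast-like cells had 130 CPM (74.1 to 211). General capillary-like, venous-like and aerocyte-like EC were at or below 4.57 CPM. Arterial-like and lymphatic-like EC held no UMI, where 3 counts would be 26.7 and 71.7 CPM. The 37 pericyte-like cells held none either, where 3 counts would be 20.8 CPM. In alveolar fibroblast-like cells, 46 of the 67 cells with *Igfbp6* also held *Igfbp3*.

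Among the classes, *Igfbp6* was highest in adventitial fibroblast-like cells, the cells of the vessel and airway sheath, with 1507 CPM (1299 to 1740) and a UMI in 13 of 14 cells. AT1-like cells came second at 674 CPM (535 to 839), 2.24-fold lower (1.71 to 2.94), and alveolar fibroblast-like cells followed at 260 (224 to 301). Without the cells with mesothelial or airway genes, the alveolar fibroblast-like level was 222 CPM. The 2 cells with mesothelial genes, which formed no class, held 5021 CPM on 31 UMIs. The AT1-like value rested on few cells: 12 of 53 held a UMI, and 41 of the 80 UMIs came from 1 cell with 606 UMIs of AT1 markers and 5 of fibroblast markers. That cell also held 22 UMIs of mesothelial list genes, and their part in the value was not tested.

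*Igfbp2* was the most restricted member. AT1-like cells had 986 CPM (815 to 1182) and held 117 of the 141 *Igfbp2* UMIs of the kept normoxia cells (83.0%), although they made up 3.93% of the cells. General capillary-like EC had 4.57 CPM on 11 UMIs, the unnamed cells 18.7 CPM on 3 UMIs, and 16 myofibroblast-like and 56 venous-like cells held none. Within the AT1-like cluster *Igfbp2* was uneven, with a UMI in 15 of 53 cells and 32, 23 and 12 UMIs in the highest 3. The 15 cells with *Igfbp2* had a median of 2557 UMIs and the 38 cells without it 928.5, and AT1 markers stood at 26442 and 20336 CPM in these groups. The highest 2 cells held 504 and 192 UMIs of AT1 markers and no UMI of an EC marker. EC markers stood at 4660 CPM in the cluster. In the 11 AT1-like cells in which none of 4 endothelial transcripts was detected, a subset added after the values were seen, *Igfbp2* stood at 2713 CPM (2070 to 3492) and *Igfbp6* at 995 CPM. The highest 2 cells were among these 11. They held 32 and 23 of the 60 *Igfbp2* UMIs of the subset, and 11 and 9 of its 22 *Igfbp6* UMIs. The subset levels thus rest mostly on those 2 cells.

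The kept pericyte-like cells carried little of the family. The 37 normoxia cells had 34 UMIs of the 6 genes, 236 CPM in all, against 2301 CPM in alveolar fibroblast-like cells and 6523 CPM in myofibroblast-like cells. *Igfbp7* (132 CPM, 79.4 to 206) could not be told from the level of general capillary-like EC (fold 1.24, 0.733 to 1.97), and *Igfbp4* stood at 97.2 CPM (53.1 to 163). *Igfbp3*, *Igfbp5* and *Igfbp6* had no UMI. EC markers stood at 2486 CPM in these cells, and the part of endothelial RNA in the 34 UMIs was not tested. The filters had left out 7 normoxia cells with more than 4000 genes in which pericyte markers led. These held 46 UMIs of *Igfbp2*, 24 of *Igfbp3*, 18 of *Igfbp4*, 45 of *Igfbp6* and 74 of *Igfbp7* in 157392 UMIs, and none of *Igfbp5*.

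The members were next compared between the libraries within classes that had at least 10 cells of each. A gene was called different where hypoxia was at least 2-fold higher or lower than normoxia and the interval of the ratio did not reach 1. Of the 14 pairs of a member and a class with at least 50 UMIs, 2 were called higher and 4 lower in hypoxia. Among all genes of the classes called higher, 6.48% (alveolar fibroblast-like) and 7.2% (arterial-like) were called in that direction. For the lower calls these shares were 16.1% (AT1-like), 11.1% (alveolar fibroblast-like), 9.23% (arterial-like) and 6.12% (venous-like). Scaling to the median gene instead of the total would shift log2 ratios by 0.34 in AT1-like, 0.51 in alveolar fibroblast-like and 0.18 in venous-like cells, and by less than 0.1 in the other 3 classes. That median used only genes with a minimum count in each library (125 in AT1-like, 626 in alveolar fibroblast-like and 1067 in venous-like cells). It was 1.26, 1.42 and 1.13 in these classes. Over the genes with at least 50 UMIs in all it was 0.972, 0.911 and 1.03, so the shift depends on the gene set. The background is given for each class as the percentage of all genes with at least 50 UMIs that were called in the same direction. The median share of mitochondrial UMIs per cell was higher in the normoxia cells of all 6 classes. It was 3.53% and 1.74% in AT1-like, 3.27% and 0.613% in alveolar fibroblast-like, 2.38% and 0.359% in aerocyte-like, 2.66% and 1.29% in general capillary-like, 2.29% and 2.18% in arterial-like and 2.70% and 1.21% in venous-like cells. Before filtering, 37.6% of normoxia and 13.2% of hypoxia cells were over the mitochondrial limit, and the part of this difference in the ratios was not tested. Where no member was called, that background was 6.8% upwards in AT1-like cells, 3.34% upwards in venous-like EC and 2.84% downwards in aerocyte-like EC.

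*Igfbp4* was lower in the hypoxia library in general capillary-like and arterial-like EC, while in venous-like and aerocyte-like EC the interval of the ratio reached 1. General capillary-like EC held 613 UMIs (254 CPM) in the normoxia library and 225 UMIs (152 CPM) in the hypoxia library. The ratio was 0.596 (0.510 to 0.696), which did not pass the 2-fold limit that 3.93% of 7764 genes passed downwards. The share of these cells with a UMI was 53.0% and 31.2%, and in cells thinned to 1000 UMIs it was 19.3% (16.2 to 22.7) of 597 cells and 14.4% (10.9 to 18.6) of 347 cells, with 39 and 79 shallower cells left out. Normoxia cells lay mostly in clusters 1 and 4 (143 and 217 cells) and hypoxia cells mostly in clusters 13 and 6 (198 and 116 cells), and within the 5 clusters that had 10 or more cells from both libraries the ratio was 0.541 (0.398 to 0.734). Cluster 15, whose leading genes within the endothelium included the fibroblast genes *Inmt* and *Mfap4*, had 28 and 2 cells and was not among those 5. In arterial-like EC, the 139 UMIs of *Igfbp4* in 19 normoxia cells gave 1237 CPM and the 20 UMIs in 14 hypoxia cells gave 360 CPM. The ratio was 0.291 (0.172 to 0.467) and was called, as was that of 9.23% of 542 genes. It depended on which cells were named arterial: with each library clustered alone the class had 63 and 69 cells and the ratio was 0.940 (0.648 to 1.36). The call was also lost at resolution 1 (0.772), with the members among the variable genes (0.557) and with up to 10% mitochondrial UMIs (0.513). Venous-like EC had 257 and 246 CPM, a ratio of 0.957 (0.600 to 1.48), and aerocyte-like EC 21.4 and 8.96 CPM, on 15 and 3 UMIs (0.419, 0.0778 to 1.48).

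*Igfbp7* was higher in the hypoxia library in some of the same classes. In aerocyte-like EC as a whole the libraries were close, at 4986 and 5672 CPM with a ratio of 1.14 (1.08 to 1.20). The 2 clusters of the class differed, with 5062 and 5559 CPM in cluster 9 (91 and 38 cells). In cluster 10 (28 and 21 cells) the levels were 3832 (3275 to 4457) and 7146 (6115 to 8300) CPM. No UMI was found in 1 of 119 normoxia cells and 6 of 59 hypoxia cells of the class, and every one of 46 hypoxia cells deep enough to be thinned held it. In general capillary-like EC, 257 UMIs (107 CPM) of normoxia stood against 299 (202 CPM) of hypoxia, and the ratio of 1.89 (1.59 to 2.24) was short of the limit passed upwards by 2.47% of genes, with 140 of 636 and 129 of 426 cells holding a UMI (7.71% and 15.3% after thinning). Aerocyte markers in the same cells stood at 226 and 286 CPM, and without the cells that held at least 3 of those markers the ratio was 1.92 (1.60 to 2.32). In hypoxia the leukocyte cluster had 3 cells, where 3 counts would be 225 CPM, so it gave no background for lower levels. The unnamed cluster held 262 and 481 CPM of *Igfbp7* (ratio 1.83, 0.785 to 3.82) and AT2-like cells 195 and 193 CPM. The part of RNA from other cells in these levels was not tested. In arterial-like EC, 18 UMIs in normoxia (160 CPM) stood against 35 in hypoxia (630 CPM), with 9 cells holding a UMI in each library. The ratio of 3.93 (2.17 to 7.37) was called, against 7.2% of genes, and 9 of the 35 hypoxia UMIs came from each of 2 cells. With an upper limit of 6000 genes per cell the arterial-like class had 207 and 8 cells and the ratio was 0.834 (0.169 to 2.50), and with up to 10% mitochondrial UMIs it was 1.77 (0.993 to 2.98). In venous-like EC, 3 and 15 UMIs were found, and 11 of the 15 came from 1 cell that also held 8 UMIs of aerocyte markers. Over all EC-like cells pooled, *Igfbp7* stood at 1054 and 1097 CPM (ratio 1.04, 0.988 to 1.10) and *Igfbp4* at 250 and 141 CPM (0.562, 0.491 to 0.642). The pool also differed in make-up, with 119 of 846 and 59 of 599 cells aerocyte-like. Within the 9 EC-like clusters with 10 or more cells from both libraries, the *Igfbp7* ratio was 1.18 (1.11 to 1.24), an interval that did not reach 1. That of *Igfbp4* was 0.517 (0.415 to 0.639). In hypoxia *Igfbp7* outnumbered *Igfbp4* in general capillary-like EC (299 and 225 UMIs), arterial-like EC (35 and 20) and EC-like cells without a subtype (45 and 15), but not in venous-like EC (15 and 28).

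**Figure D3:**
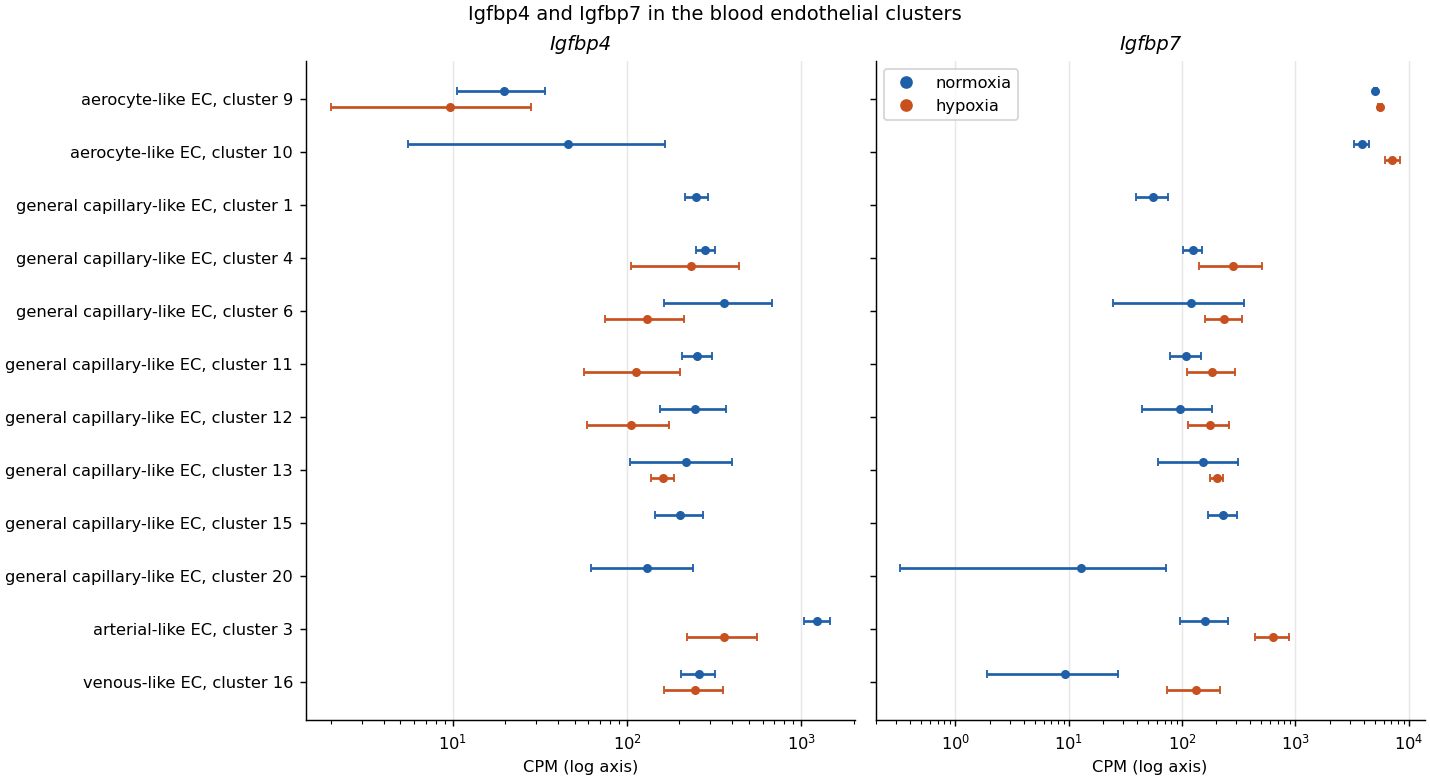
Level (CPM, log axis) of *Igfbp4* and *Igfbp7* in each aerocyte-like, general capillary-like, arterial-like and venous-like EC cluster, normoxia in blue and hypoxia in orange, with exact Poisson 95% intervals, for clusters with at least 10 cells and 1 UMI in that library. In each general capillary-like cluster with both libraries, the hypoxia point of *Igfbp4* lies below and that of *Igfbp7* above the normoxia point, with overlapping intervals in most of them.

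*Igfbp5* in venous-like EC was found in 9 of 56 normoxia cells (51 UMIs, 158 CPM) and in 1 of 25 hypoxia cells (1 UMI, 8.79 CPM). The ratio was 0.0556 (0.00138 to 0.324), past the limit that 6.12% of 1585 genes passed downwards. The interval treats UMIs as independent, although 15, 12 and 7 of the 51 lay in the highest 3 cells. Median depth of the class was 5123 UMIs in normoxia and 3407 in hypoxia, and its part in the share of cells was not tested. After removal of the cell with most UMIs in each library, no hypoxia UMI was left, and the interval was 0 to 0.303.

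**Figure D4:**
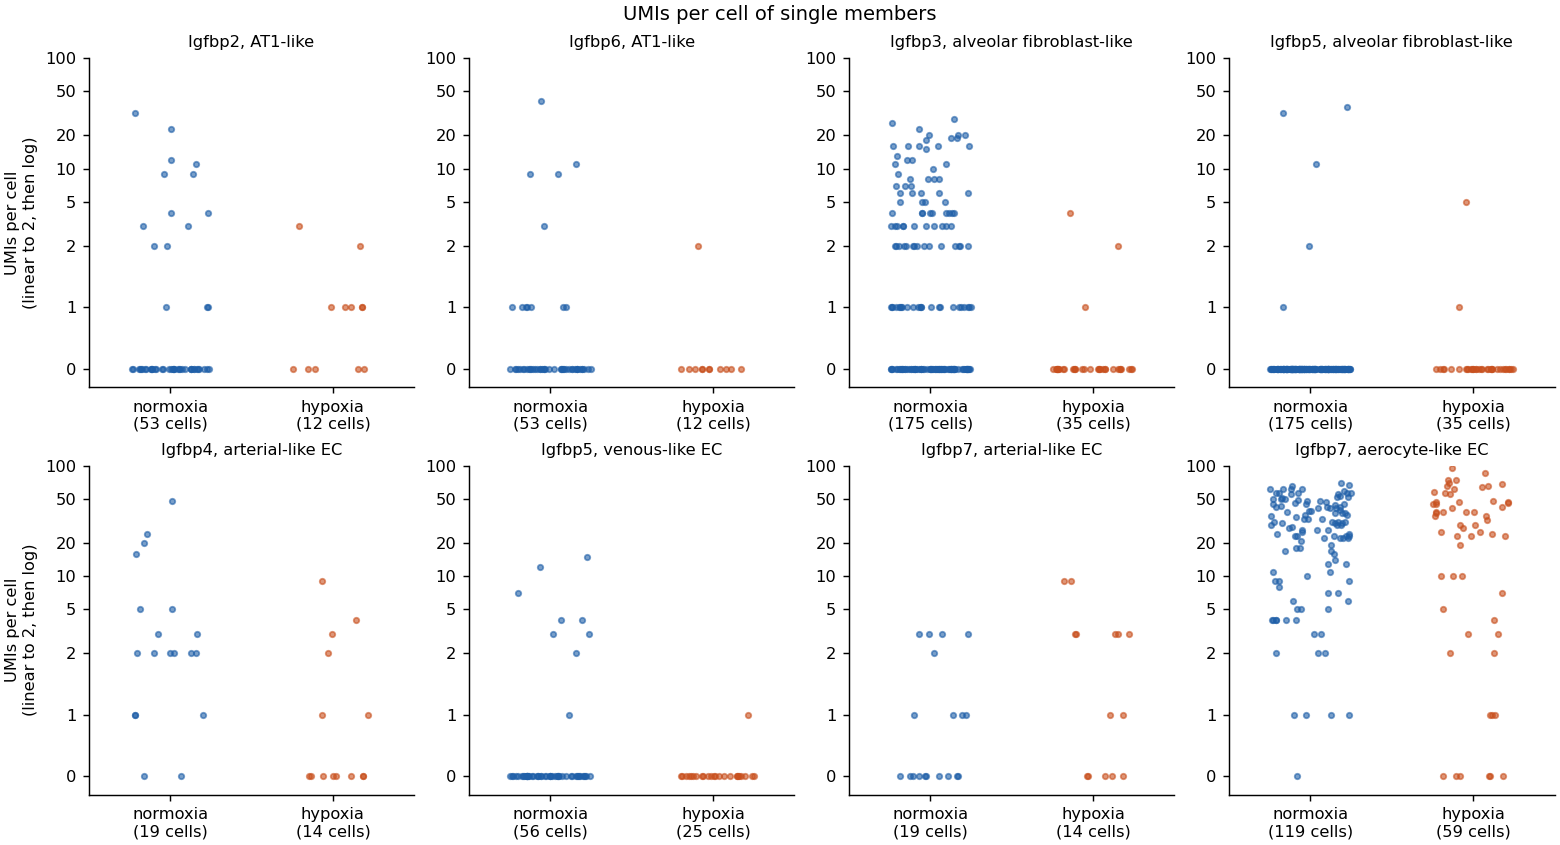
UMIs per cell (linear up to 2, log above) for chosen pairs of a member and a class, 1 point per cell, normoxia in blue and hypoxia in orange. The pairs are *Igfbp2* and *Igfbp6* in AT1-like and *Igfbp3* and *Igfbp5* in alveolar fibroblast-like cells. The EC pairs are *Igfbp4* and *Igfbp7* in arterial-like, *Igfbp5* in venous-like and *Igfbp7* in aerocyte-like EC. In the alveolar fibroblast-like cells the *Igfbp5* UMIs of normoxia lie in 5 cells, and in venous-like EC in 9 cells.

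In alveolar fibroblast-like cells, 592 UMIs of *Igfbp3* in normoxia (834 CPM) stood against 7 in hypoxia (88.5 CPM). A UMI was found in 97 of 175 and in 3 of 35 cells, and after thinning in 42.7% of 124 and 4.17% (0.105 to 21.1) of 24 cells. The ratio was 0.106 (0.0425 to 0.220), called as for 11.1% of 2793 genes. The cells were unevenly spread over the 2 clusters of the class, with 94 and 33 cells in cluster 7 and 81 and 2 in cluster 17, and within cluster 7 alone the ratio was 0.229 (0.0710 to 0.573). *Igfbp7* had 745 UMIs (1049 CPM) in the normoxia cells and 192 UMIs (2428 CPM) in the hypoxia cells, giving a ratio of 2.31 (1.96 to 2.72) against a background of 6.48% of genes, and of 1.68 (1.33 to 2.12) within cluster 7. The call was lost there, with median-ratio scaling over genes with a minimum count in each library (1.63) and with up to 6000 genes per cell (1.99). EC markers stood at 749 CPM in the normoxia cells and 2770 CPM in the hypoxia cells, aerocyte markers at 641 and 481 CPM, and median depth at 2861 and 1562 UMIs, and their part in these ratios was not tested. *Igfbp6* had 260 and 152 CPM (0.583, 0.296 to 1.04). Its ratio was 0.247 (0.0952 to 0.540) within cluster 7, past the limit, and 1.08 with each library clustered alone. Of the 61 normoxia *Igfbp6* UMIs of cluster 7, 31 lay in the 2 cells with mesothelial genes. Within cluster 7 the ratio without them was not computed. In the whole class, without the 3 cells with mesothelial or airway genes, the *Igfbp6* ratio was 0.682 (0.345 to 1.23). *Igfbp5* had a ratio of 0.657 (0.234 to 1.49) with all cells and of 17.5 (3.74 to 108) without the 3 cells with mesothelial or airway genes, on 3 and 6 UMIs, 5 of the latter in 1 cell. Myofibroblast-like cells were found in the normoxia library only, so the leading class of *Igfbp3* and *Igfbp5* had no hypoxia value.

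In AT1-like cells, *Igfbp2* stood at 986 CPM (117 UMIs) in normoxia and 561 CPM (10 UMIs) in hypoxia. The ratio of 0.569 (0.266 to 1.08) reached 1, and 15 of 53 and 7 of 12 cells held a UMI (26.7% of 30 and 33.3% of 9 after thinning). *Igfbp6* stood at 674 and 112 CPM, on 80 and 2 UMIs, with a ratio of 0.167 (0.0198 to 0.622), called as for 16.1% of 397 genes. Fibroblast markers in the same cells stood at 1441 and 225 CPM. As a mean over cells, in which the deepest cells do not weigh most, the ratio of *Igfbp2* was 1.17 and that of *Igfbp6* 0.917. Both hypoxia *Igfbp6* UMIs lay in 1 cell of 612 UMIs, so the value of 0.917 rests on that shallow cell. The same cell held 2 of the 10 hypoxia *Igfbp2* UMIs, so it also weighs heavily in the value of 1.17. The mean over cells without it was not computed. With each library clustered alone the ratio of *Igfbp2* was 0.0327 (0.00082 to 0.186), and with up to 10% mitochondrial UMIs 0.255 (0.130 to 0.456), both past the limit. *Igfbp7* had 1205 and 954 CPM (0.792, 0.449 to 1.31). Its ratio was 4.91 with each library clustered alone, 2.12 with up to 10% mitochondrial UMIs, 1.72 without cells holding the 4 endothelial transcripts and 1.34 as a mean over cells, so no direction can be given.

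**Figure D5:**
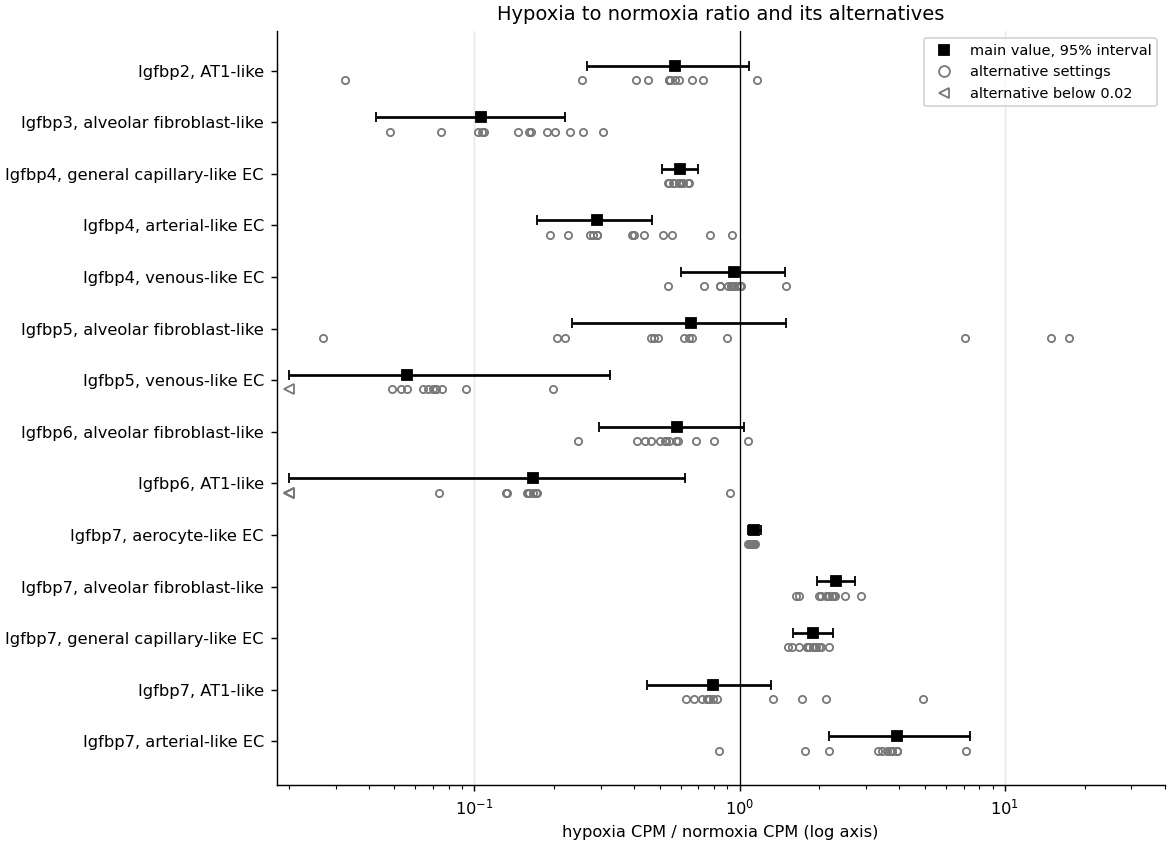
Ratio of hypoxia to normoxia CPM (log axis) for the pairs of a member and a class with most UMIs. Black squares with bars are the reported values with exact 95% intervals, open circles the values under other settings, and triangles values below 0.02, where the bars are cut. *Igfbp4* in general capillary-like EC stays between 0.539 and 0.642 and *Igfbp7* in aerocyte-like EC between 1.08 and 1.14, while *Igfbp5* in alveolar fibroblast-like cells runs from 0.0269 to 17.5.

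Over all kept cells, hypoxia was lower for *Igfbp3* (158 and 7.41 CPM, ratio 0.0468), *Igfbp5* (90.7 and 4.36, 0.0481), *Igfbp6* (92.4 and 13.5, 0.146) and *Igfbp2* (27.3 and 7.84, 0.288). The cells of the leading classes were also fewer in that library, and 8.94% of 9831 genes were called lower over all kept cells. In strata of the clusters with 10 or more cells from both libraries the ratios were 0.213 for *Igfbp3*, 0.0599 for *Igfbp5*, 0.260 for *Igfbp6* and 0.701 (0.382 to 1.20) for *Igfbp2*. Of the 140 normoxia *Igfbp5* UMIs in these strata, 80 lay in cluster 7. There, 68 came from 2 cells with mesothelial genes and 11 from 1 cell with airway genes. The mesothelial pair also held 31 of the 150 normoxia *Igfbp6* UMIs of the strata. Ratios over the strata without these cells were not computed.

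The other genes of the pathway were read from a list of 14, of which 1, 3, 1 and 5 had at least 50 UMIs in aerocyte-like, general capillary-like, venous-like EC and alveolar fibroblast-like cells. *Igf1r*, the type 1 IGF receptor, was the 1 gene called among them. In aerocyte-like EC, 84 UMIs were found in each library, which is 120 and 251 CPM and gives a ratio of 2.10 (1.53 to 2.87) against a background of 1.99% of 3665 genes. In general capillary-like EC it stood at 210 and 118 CPM (0.563, 0.471 to 0.670). The aerocyte-like ratio of *Igf1r* lay close to the 2-fold limit, and the median gene used for scaling had a ratio of 1.06 in that class. Median-ratio scaling and the other filters and clusterings were not run for *Igf1r*. Of the ligands, *Igf1* was led by adventitial fibroblast-like cells (267 CPM) and myofibroblast-like cells (253 CPM) in normoxia, and alveolar fibroblast-like cells held 123 CPM in normoxia and 152 in hypoxia (ratio 1.24, 0.616 to 2.28). *Insr*, the insulin receptor, was highest in venous-like EC among the classes of the comparison (121 and 176 CPM, ratio 1.45, 0.804 to 2.55). *Igf2r*, which takes IGF2 up for degradation, stood at 78.0 and 79.6 CPM in general capillary-like EC. The proteases that cut IGF-binding proteins were sparse, with 12 *Pappa* UMIs and 8 *Pappa2* UMIs in all kept normoxia cells, while *Htra1* reached 223 CPM in myofibroblast-like cells.

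The genes whose levels were most like those of each member were ranked by Pearson correlation of log2(CPM + 10) over the 12 classes with at least 10 normoxia cells, as a description of points that share 1 library. For *Igfbp2* these were *Rtkn2* (0.973), *Akap5* (0.955) and *Scnn1a* (0.953), of which the former pair were AT1 markers used for naming. For *Igfbp3* they were *Prdm6* (0.957), *Lpar1* (0.952) and *Robo2*, for *Igfbp6* *Egfr*, *Col4a5* and *Dmpk* (0.919 to 0.940), and for *Igfbp5* *Hlf*, *Rhou* and *Col14a1* (0.876 to 0.904). *Col14a1* was an adventitial fibroblast marker used for naming. For *Igfbp4* they were *Dchs1*, *Ntn1* and *Il18bp* (0.830 to 0.927), and for *Igfbp7* *Tns3*, *Pdlim2* and *Pmp22* (0.802 to 0.846). In hypoxia, over 6 classes, *Hlf* (-0.225), *Rhou* (-0.206), *Il18bp* (-0.182) and *Dchs1* (0.347) did not follow their member closely. All the other genes named stood at 0.538 or above. In all kept hypoxia cells there were 10 UMIs of *Igfbp5*, 17 of *Igfbp3*, 18 of *Igfbp2* and 31 of *Igfbp6*. The hypoxia values of these 4 members thus rest on few counts. *Egfr* and *Col4a5* had the same hypoxia value (0.681). Among the members, *Igfbp3* and *Igfbp5* were the most similar pair (0.835) and *Igfbp2* and *Igfbp5* the least (-0.297). With a pseudocount of 1, *Igfbp3* and *Igfbp5* stood at 0.788 and *Igfbp3* and *Igfbp6* at 0.782. The *Igfbp5* level of alveolar fibroblast-like cells used here includes the cells with mesothelial or airway genes.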

How the data were processed

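Lung cells of mice, 1 library in normoxia and 1 in hypoxia, were analysed from raw UMI counts per gene and cell, which the authors deposited after Cell Ranger (6.1.2 in the file header, other versions in the paper) with mm10. The cell filter was 200 to 4000 genes with no more than 5% of UMIs mitochondrial, and doublets were removed by that upper limit alone. Leiden clustering (scanpy 1.11.5, 2000 variable genes, 30 components, 15 neighbours, resolution 2, no batch correction) left out the members and 14 pathway genes. Classes needed at least 3 detected markers. UMIs were summed per class and library. Intervals at 95% are Poisson for levels, conditional binomial for ratios and Clopper-Pearson for shares. No p-value was computed. Calls required 50 UMIs for the background. On simulated Poisson counts, 100% of 4-fold changes were recovered in general capillary-like EC (7774 genes) and in arterial-like EC (544 genes). Of the unchanged genes, 0.264% and 1.43% were called. The simulation had no spread between cells, no library effect and no clustering, so it cannot say how these affect the calls. Members, lists and the rule for named genes (all members, the pathway list, the 3 most alike genes) were chosen with earlier results of these data known. Gene positions are from GENCODE vM21 (GRCm38).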

Additional observations from a re-analysis of the deposited data

Results flagged for a closer look

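*Igf1r* differed in direction between endothelial classes: its hypoxia/normoxia ratio was 2.10 in aerocyte-like EC and 0.563 in general capillary-like EC, each with an interval that did not reach 1, and the difference between the classes was not tested.

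The cells left out by the filters also held UMIs of the members. In the 875 normoxia cells outside the kept cells there were 320 UMIs of *Igfbp2*, 184 of *Igfbp3*, 411 of *Igfbp4*, 465 of *Igfbp5*, 571 of *Igfbp6* and 1597 of *Igfbp7*. In the 120 hypoxia cells there were 14 of *Igfbp3*, 22 of *Igfbp4*, 8 of *Igfbp6* and 906 of *Igfbp7*, and 2 each of *Igfbp2* and *Igfbp5*. For *Igfbp2* and *Igfbp6* the normoxia numbers exceed those in the kept cells (141 and 478). Of the normoxia UMIs, 215 of *Igfbp2* lay in 46 cells with more than 4000 genes, and 153 of these in 5 cells in which AT1 markers were the list with the largest share detected. In the same way, 114 *Igfbp5* UMIs lay in 2 cells led by airway epithelial markers, and 181 *Igfbp6* UMIs in 6 cells led by fibroblast markers. The 7 cells led by pericyte markers held 46 *Igfbp2* and 74 *Igfbp7* UMIs. In hypoxia, 742 of the *Igfbp7* UMIs lay in 9 such cells led by endothelial markers. These cells are large, and whether they hold more than 1 cell each was not tested.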

How the results depend on the processing

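No paired analysis was possible because there was a single library per condition. Of 234 alternative values for 20 results, 185 stayed within the interval of the reported value, 48 moved beyond it and 1 called ratio changed direction, and the cause of these changes was not tested. Ratios that were not called also crossed 1 under some settings (*Igfbp2* and *Igfbp7* in AT1-like, *Igfbp5* and *Igfbp6* in alveolar fibroblast-like and *Igfbp4* in venous-like cells). *Igfbp4* in general capillary-like EC (0.539 to 0.642), *Igfbp7* in aerocyte-like EC (1.08 to 1.14) and the leading levels of *Igfbp5* and *Igfbp7* stayed within their intervals in all. With up to 6000 genes per cell, the levels were 1429 CPM (*Igfbp2*, AT1-like), 473 (*Igfbp4*, arterial-like) and 1778 (*Igfbp6*, adventitial), and the *Igfbp7* ratio was 1.53 in general capillary-like and 0.834 in arterial-like EC, the called ratio that changed direction. With up to 10% mitochondrial UMIs, arterial-like *Igfbp4* was 508 CPM and its ratio 0.513, *Igfbp7* was 1.77 in arterial-like and 2.12 in AT1-like cells, *Igfbp2* 0.255 in AT1-like cells, and *Igfbp3* and *Igfbp5* 0.305 and 0.205 in alveolar fibroblast-like cells. At resolution 1, arterial-like *Igfbp4* was 392 CPM with a ratio of 0.772, and alveolar fibroblast-like *Igfbp3* 0.258. At resolution 3 arterial-like *Igfbp4* was 901 CPM and alveolar fibroblast-like *Igfbp7* 2.87. With each library clustered alone, *Igfbp2* was 695 CPM with a ratio of 0.0327, *Igfbp6* 0 and *Igfbp7* 4.91 in AT1-like cells, *Igfbp4* 317 CPM with a ratio of 0.940 in arterial-like and 0.538 in venous-like EC, and *Igfbp5* and *Igfbp6* 14.9 and 1.08 in alveolar fibroblast-like cells. With the members among the variable genes, arterial-like *Igfbp4* was 423 CPM with a ratio of 0.557. As a mean over cells, AT1-like *Igfbp2* was 671 CPM with a ratio of 1.17, *Igfbp6* 0.917 and *Igfbp7* 1.34. Median-ratio scaling gave 1.63 for alveolar fibroblast-like *Igfbp7*. Within cluster 7, alveolar fibroblast-like *Igfbp3*, *Igfbp5*, *Igfbp6* and *Igfbp7* were 0.229, 0.0269, 0.247 and 1.68. Without the cell with most UMIs in each library, *Igfbp5* was 0.219 in alveolar fibroblast-like cells and 0 in venous-like EC, *Igfbp6* 0 in AT1-like cells, and *Igfbp2*, on 3 UMIs in each library, 0 against 8.98 in alveolar fibroblast-like cells.

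Strict marker gates left 1329 of 1348 and 688 of 689 cells without a class and gave no value. Gates by the largest share of markers, chosen after seeing the data, gave 1281 CPM for *Igfbp2* in AT1-like and 2359 for *Igfbp3* in myofibroblast-like cells, and ratios of 1.497 (*Igfbp4*, venous-like), 1.58 (*Igfbp7*, general capillary-like), 7.11 (*Igfbp5*, alveolar fibroblast-like) and 0 (*Igfbp2*, alveolar fibroblast-like). Also added after seeing the data, the AT1-like subset without 4 endothelial transcripts gave 2713 CPM for *Igfbp2* and ratios of 0 (*Igfbp6*) and 1.72 (*Igfbp7*), and leaving out cells with mesothelial or airway genes gave 17.5 for *Igfbp5*. With a minimum of 1 UMI in each library instead of 50 UMIs, the genes called higher numbered 174 instead of 27 in AT1-like, 467 instead of 181 in alveolar fibroblast-like, 270 instead of 73 in aerocyte-like, 394 instead of 192 in general capillary-like, 281 instead of 39 in arterial-like and 360 instead of 53 in venous-like cells, and those called lower 262 instead of 104 in aerocyte-like, 527 instead of 305 in general capillary-like, 106 instead of 50 in arterial-like and 150 instead of 97 in venous-like cells. More genes were then tested (4073 instead of 397 in AT1-like, 6751 instead of 542 in arterial-like cells), and the share called higher was 4.27% instead of 6.8% and 4.16% instead of 7.2% there. With a pseudocount of 1, of the 3 most alike genes 0 were kept for *Igfbp2*, 1 each for *Igfbp3* and *Igfbp5*, 2 each for *Igfbp4* and *Igfbp7*, and 3 for *Igfbp6*. In hypoxia the shallowest compared classes held 17813 (AT1-like), 55578 (arterial-like) and 79072 (alveolar fibroblast-like) UMIs, against 1482900 in general capillary-like EC.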
